A study of Rattus norvegicus with 12 samples.

Results

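Rat cardiac progenitor cells plated for 2 h on fibronectin were compared with the same cells in suspension, in 3 RNA sequencing libraries each, 6 of the 12 libraries of the series. Libraries were taken by their labelled culture condition. The replicate number, which in every group equals the labelled batch, gives the pairing. The main test against suspension did not use this pairing, which enters in alternative fits. The cells are a line grown out from 1 rat clone and kept in 10% serum with leukemia inhibitory factor, basic fibroblast growth factor, erythropoietin and glutathione. Dishes were seeded sparsely, so that cells did not touch, and held in 0.1% serum. The other 6 libraries, 3 on laminin and 3 on uncoated dishes, were plated for the same 2 h and are used here only to show where fibronectin differs. The labels carry the plating protocol for suspension cells as well and do not say how those were handled, so attachment cannot be told apart from any difference in handling.

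Fibronectin is a matrix protein of wounds and developing tissue that cells bind mainly through integrins carrying the alpha 5 or alpha v chain, with the proteoglycan syndecan-4 as a co-receptor. Bound integrins gather focal adhesion proteins, activate FAK and Src kinases and set the balance of the small GTPases that build actin fibres. Tension on those fibres is one of the signals that let YAP and TAZ, co-activators without a DNA-binding domain of their own, enter the nucleus and act with TEAD factors. The series title names early regulation of YAP and of the Polo-like kinase Plk2 as a theme of the study.

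The 6 libraries held between 16553746 and 19153325 counted reads, and ribosomal RNA genes took 0.809% to 4.24% of them. CPM are read counts scaled to a common library size. Fibroblast and mesenchymal markers summed to between 8381 and 9407 CPM in suspension and between 9868 and 10563 CPM on fibronectin. Most of it was Vim (mean 4544.5 and 5398 CPM) and S100a4 (1773 and 2291 CPM). Of that list Dcn had 0 counts in both groups, Lum 1 and 0, and Thy1 6 and 4. Smooth muscle markers summed to 423 to 519 CPM in suspension and 372 to 447 CPM on fibronectin. Endothelial markers, mostly Flt1 and then Egfl7, summed to 136 to 223 and 149 to 186 CPM. Of that list Pecam1 had 13 counts in suspension and 11 on fibronectin, Cdh5 6 and 0, and Emcn and Cldn5 0 in both. Epithelial markers, mostly Krt8, summed to 297 to 311 and 352 to 409 CPM. Of these Epcam and Krt18 had 0 counts in both groups, and Cdh1 18 and 15. Of the progenitor markers, Gata4, Gata6 and Pdgfra were well covered, Kit stood between 2.79 and 3.58 CPM, and Isl1, Tbx5, Nanog, Sox2 and Pou5f1 had 0 counts, each of which allows up to 3. Blood cell markers summed to between 35.6 and 38.8 CPM in suspension and between 57.3 and 64.2 CPM on fibronectin, most of it Cd14, with Ptprc, the pan-leukocyte marker, at 0 counts in both groups. Cardiomyocyte markers summed to between 10.7 and 15.3 CPM and then between 21.4 and 22.7 CPM, with Myh7 and Nkx2-5 at 0 counts. Fewer cells of a type and less RNA per cell cannot be told apart in bulk libraries, and the part of these markers in the results was not tested. On the first principal component suspension libraries lay between -30.8 and -27.8, fibronectin 1 and 2 at -1.53 and -7.04, and fibronectin 3 at 20.8. Fibronectin 3 thus stands apart from the other fibronectin libraries. Laminin 3 and no coating 3, at 35.0 and 41.9, stood apart in the same direction from their replicates 1 and 2, at -3.02 to 1.46. Suspension 3, at -28.7, lay with the other suspension libraries. Values without batch 3 are given where they matter.

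Plating on fibronectin changed 969 of the 10020 genes that had enough reads to test, with 662 higher and 307 lower. These are 6.61% and 3.06% of the genes tested, 9.67% together. The test was an unpaired edgeR quasi-likelihood test over all 12 libraries without a batch term, at a Benjamini-Hochberg adjusted p threshold of 0.05. Most of the response was shared with the other surfaces. Of the 969 genes, 764 also passed in the same direction against suspension on both laminin and uncoated dishes, and 67 passed on neither. These comparisons share the suspension libraries. All 969 had the same direction in the 3 batches, and each change below is on the log2 scale with its SE unless a CPM is named. Most changes were small: 554 of the calls (57.2%) were under 1.5-fold, whereas 131 genes rose and 49 fell by 2-fold or more. The median call was 0.49 on the log2 scale among rises and -0.58 among falls, and the median over all tested genes was 0.0010. With batch as a block over the 12 libraries, called the block from here on, the test called 2872 genes (28.7%), among them all 969. Counts of gene groups below stand against 6.61% higher and 3.06% lower, and block counts against that 28.7%. The paired fit of the 6 libraries alone called 1881 (18.8%). The excess of rises over falls was not stable to processing: rises were 68.3% of calls with TMM scaling, 53.9% when libraries were scaled by total count only, and 46.9% without batch 3. Leaving out 1 of the 6 libraries at a time left between 410 and 719 calls, and 356 of the 969 (36.7%) passed in each of those 6 fits.

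The strongest rises by the naming rule were led by Hey2, a transcriptional repressor downstream of Notch, at 4.17, 3.53 and 3.6 CPM in suspension 1, 2 and 3 and 25.5, 24.9 and 25.4 CPM on fibronectin. Adgrg1, an adhesion G protein-coupled receptor, went from 6.05, 6.39 and 6.87 CPM to 47.4, 37.3 and 40.9 CPM. The groups did not overlap for either gene. The other rises on this list were Nfatc2 (a calcium-regulated transcription factor), Eepd1, Olfml2a, Mrgprf, Neurl3, Osgin1 (an oxidative stress-inducible growth inhibitor), Gper1 (a membrane estrogen receptor), Notch1, Rap1gap2 (a GTPase-activating protein for Rap1), Nod1 (a bacterial peptidoglycan sensor), Rnf144b, Sdc4 and Arl4d. Their log2 fold changes ran from 2.64 ± 0.17 (SE) for Nfatc2 down to 1.82 ± 0.20 for Arl4d. The fitted change for Hey2 was 2.74 ± 0.19 (edgeR, adjusted p = 9.0e-06) and for Adgrg1 2.70 ± 0.12 (adjusted p = 9.8e-07).

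Among the falls, Egr1, an immediate early zinc finger factor, went from 37.1, 107 and 102 CPM in suspension to 16.5, 12.6 and 11.5 CPM, a change of -2.60 ± 0.38 (edgeR, adjusted p = 0.0020). Suspension 1 was well under the other suspension libraries for this gene, and the groups still did not overlap. Hbegf, a membrane-anchored EGF receptor ligand, behaved alike, at 49.9, 137 and 93.2 CPM against 26.2, 20.6 and 23.3 CPM. Dlx2, a homeobox factor, fell from 11.1, 14.5 and 16.2 CPM to 2.18, 3.0 and 2.79 CPM. Falls of the cell cycle transcription factor Mybl1 and the keratinocyte growth factor gene Fgf7 were deepest in batch 3: Mybl1 stood at 33.2, 36.5 and 18.7 CPM on fibronectin 1, 2 and 3, and at 107 to 126 CPM in suspension. Id1, Id3, Smad9, Atoh8, Ankrd1, Nfkbiz, Dusp1, Sgk1, Fzd1 and Csf1 complete the list. Of these 30 genes, 29 passed in each of the 6 fits that left out a library, and the call of Nfkbiz, an atypical NF-kB regulator, ended without fibronectin 3.

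**Figure D1:**
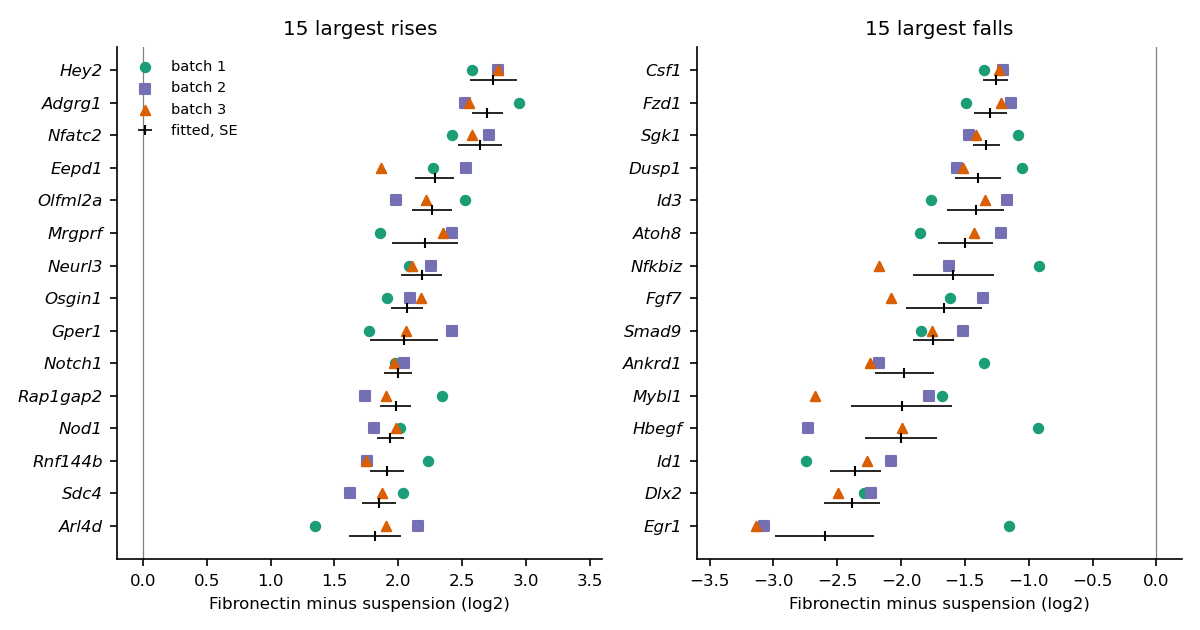
Difference between fibronectin and suspension on the log2 scale for the 15 largest rises (left) and 15 largest falls (right), with 1 symbol for each batch and the fitted change with its SE in black. All 3 batches lie on the same side of 0 for every gene, and for Egr1 batch 1 lies well above batches 2 and 3.

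Some genes were almost silent in suspension. Those below were taken because they passed as higher and held 3 or fewer reads over the suspension libraries. Their low suspension counts are thus the rule of choice and not a separate result. Nrarp, a Notch feedback inhibitor, had 207 reads over the fibronectin libraries and 1 over the suspension libraries, which is 199 times as many after adjusting for depth (95% counting interval 35.3 to 7901). Sema5b, a transmembrane semaphorin, had 69 reads against 1 (ratio 66.4, interval 11.5 to 2659), and Hes2, a basic helix-loop-helix repressor, 89 against 3 (ratio 28.5, interval 9.45 to 141). Hey1 had 36 against 3 (ratio 11.5, interval 3.65 to 58.6). These intervals cover counting error only and make no allowance for that choice. None of these genes passed against both laminin and uncoated dishes in the same direction.

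No tested integrin chain that binds fibronectin passed the test against suspension. Of 6 tested fibronectin-binding integrin subunits 0 passed, and of 7 other integrin subunits 0 passed (edgeR, adjusted over all genes). Over all tested genes 9.67% passed, so with this few subunits a count of 0 does not set them apart. DESeq2 also called 0 in both groups, and at an unadjusted p under 0.05 edgeR gave 2 and 1. Itga5, the alpha 5 chain of the classical fibronectin receptor, stood at 280, 317 and 315 CPM in suspension and 376, 350 and 379 CPM on fibronectin, a difference of 0.28 ± 0.10 that missed the threshold (adjusted p = 0.094) and passed with batch as a block (adjusted p = 0.015). Itgb6 behaved the same way at a low level, with a difference of 0.53 ± 0.18 (adjusted p = 0.087, and 0.015 with the block). Itgb1, the beta 1 chain that pairs with alpha 5, stood between 2303 and 2973 CPM in the 6 libraries, with overlapping groups. Itga6, a laminin receptor chain, ran from 221 to 314 CPM in suspension and from 195 to 244 CPM on fibronectin, and this difference passed with the block (adjusted p = 0.020).

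Co-receptors did change. Sdc4, the syndecan that binds the heparin-binding domain of fibronectin, stood at 389, 404 and 368 CPM in suspension and 1600, 1242 and 1345 CPM on fibronectin, a rise of 1.85 ± 0.14 (edgeR, adjusted p = 1.4e-05). On laminin the 3 libraries held 1629, 1203 and 1383 CPM and on uncoated dishes 1677, 1312 and 1395 CPM, and fibronectin passed against neither (adjusted p = 0.95 and 0.47). The tetraspanin Cd9, an integrin partner, rose by 0.78 ± 0.06, and Sdc1, another syndecan, by 0.45 ± 0.09. With these, 3 of 12 tested syndecans and other matrix receptors rose and 0 fell, and each of the 3 passed in every fit that left out a library (edgeR). Over all tested genes 6.61% rose, and with this few members the count does not set the group apart. At an unadjusted p under 0.05 and with DESeq2 0 fell, and with the block 5 rose and 1 fell.

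Of 33 tested focal adhesion adaptors and kinases 0 rose and 2 fell, with a median of -0.09. For rises, edgeR gave 1 at an unadjusted p under 0.05 and DESeq2 called 1. Tns3, a tensin that links integrin tails to actin, fell by 0.37 ± 0.06, from 361, 375 and 364 CPM to 294, 272 and 288 CPM. Bcar3, an adaptor of p130Cas, fell by 0.44 ± 0.09, and its call ended without suspension 2. With batch as a block 8 of the 33 fell and 1 rose, near the 28.7% that the block called over all tested genes. Among them were the PAK partner Arhgef7 as a fall and Crkl, an adaptor below p130Cas, as the rise. Pdlim5, a PDZ and LIM protein of the actin cytoskeleton, did not pass against suspension but did against both laminin and no coating, at 0.30 ± 0.04 above their mean, and this was lost without fibronectin 2, laminin 1 or 2 or no coating 2.

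Matrix-remodelling genes gave 4 rises and 2 falls among 43 tested. These calls are 13.95% of the group, against 9.67% over all tested genes. With this few calls the count does not set the group apart, and an excess was not tested. Plat, the tissue plasminogen activator, rose from 120, 130 and 123 CPM to 282, 249 and 242 CPM, by 1.05 ± 0.10. Tgm2, a transglutaminase that crosslinks matrix and binds fibronectin, rose by 0.65 ± 0.08. The metalloproteases Adamts1 and Adam19 fell by 1.13 ± 0.12 and 1.05 ± 0.10. Adamts1 held 74.8, 59.1 and 59.3 CPM in suspension and 32.9, 27.0 and 28.6 CPM on fibronectin without overlap. Calls of Plat, Tgm2, Adamts1 and Adam19 passed with any 1 library left out.

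**Figure D2:**
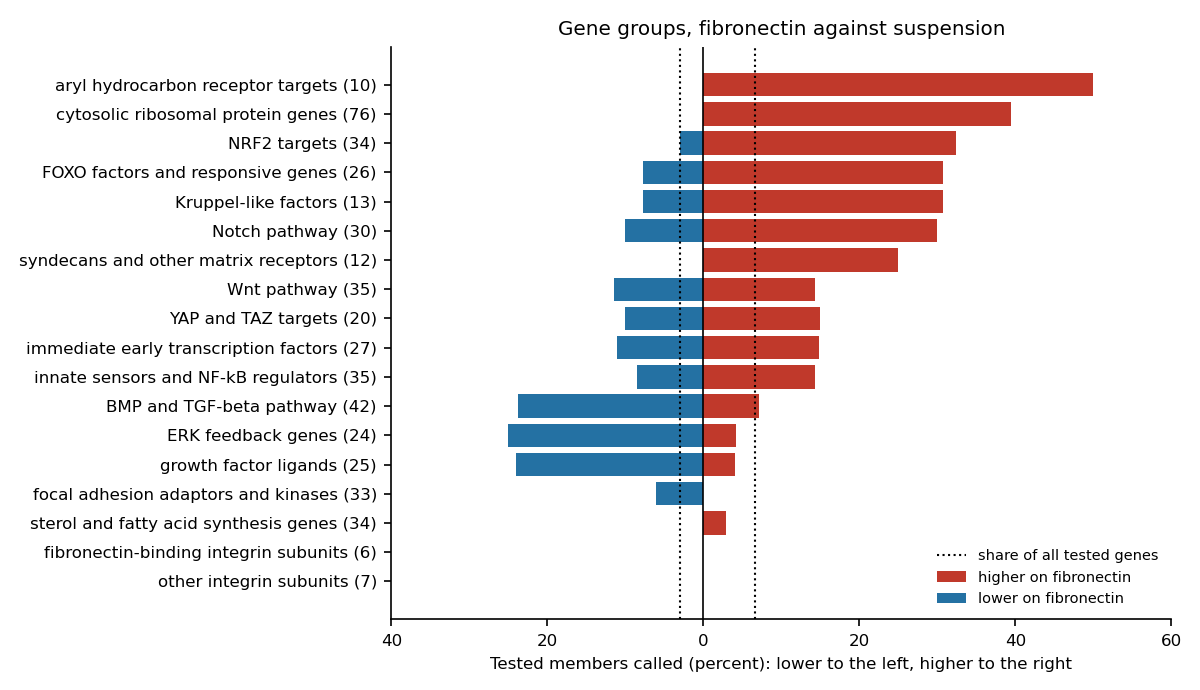
Share of the tested members of each gene group, with their number in brackets, called higher (red, to the right) or lower (blue, to the left) on fibronectin than in suspension; dotted lines give the shares over all 10020 tested genes, 6.61% higher and 3.06% lower. Aryl hydrocarbon receptor targets reach 5 of 10 higher, while BMP and TGF-beta, ERK feedback and growth factor groups lie mostly to the left and both integrin groups are empty.

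Notch signalling passes from a ligand on one cell to a receptor on its neighbour, whose cleaved tail joins RBPJ on target genes. Of 30 tested Notch pathway genes 9 rose and 3 fell (14 and 5 with the block), with a median of 0.29. The rises held receptors (Notch1, Notch3), a ligand (Jag1), targets (Hey1, Hey2, Hes1, Nrarp) and ubiquitin ligases (Neurl3, Dtx4). Notch1 stood at 52.5, 46.7 and 51.1 CPM in suspension and 207, 193 and 200 CPM on fibronectin. Jag1 rose by 0.97 ± 0.11, from 33.3, 43.5 and 43.2 CPM to 79.7, 81.5 and 74.3 CPM. Hes1 rose to 141, 132 and 145 CPM from 19.4, 61.5 and 49.0 CPM, with suspension 1 again the lowest. The falls were Lfng, a glycosyltransferase that tunes the receptor, at -0.76 ± 0.12, Rbpj itself at -0.81 ± 0.19 and Notch2 at -0.40 ± 0.10. The call of Notch2 ended without any 1 of the 6 libraries and that of Rbpj without suspension 2 or 3 or fibronectin 1 or 3. Of the 30 genes 0 passed against both other surfaces (edgeR), and 5 did at an unadjusted p under 0.05.

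BMP ligands signal through SMAD1, SMAD5 and SMAD9 and induce Id genes, while TGF-beta uses SMAD2 and SMAD3. Of 42 tested genes of both branches 3 rose and 10 fell (6 and 22 with the block), with a median of -0.27. In the BMP branch the transducers Smad1 and Smad9 fell, Smad1 from 169, 158 and 162 CPM to 86.2, 82.3 and 82.8 CPM, a change of -0.96 ± 0.06 (edgeR, adjusted p = 5.3e-06). The targets fell with them: Id1 from 429, 351 and 397 CPM to 64.0, 83.1 and 82.5 CPM, and Id4 by 1.02 ± 0.11. The inhibitory Smad7 fell by 1.06 ± 0.09. The TGF-beta transducer Smad3 went the other way, from 135, 135 and 136 CPM to 354, 295 and 317 CPM, a rise of 1.25 ± 0.10. Fst, the activin-binding follistatin, rose by 0.92 ± 0.13, and the type I receptor Acvr1 by 0.46 ± 0.10, a call that ended without suspension 3 or fibronectin 1. Smad6 and the activin receptor Acvr1b also fell, with calls that ended without any 1 of the 6 libraries.

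Wnt ligands act through Frizzled receptors, and the receptors moved in both directions. Of 35 tested Wnt pathway genes 5 rose and 4 fell (8 and 7 with the block). Fzd7 rose from 36.9, 35.1 and 38.1 CPM to 59.8, 65.5 and 65.2 CPM, by 0.79 ± 0.07, and Fzd8 by 0.81 ± 0.13. Fzd1 fell from 334, 229 and 257 CPM to 118, 104 and 111 CPM, by 1.30 ± 0.13. Ctnnb1, which encodes the beta-catenin of both cadherin junctions and Wnt signalling, rose by 0.40 ± 0.06, and the ligands Wnt4 and Wnt5a by 0.76 ± 0.14 and 0.55 ± 0.11. Calls of the ligase gene Rnf43 and of Fzd4, both lower, ended without suspension 3, and that of Lrp6 without any 1 of the 6 libraries.

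Secreted growth factor genes fell more often than they rose, with 1 rise and 6 falls among 25 tested (3 and 10 with the block). Vegfa, the main endothelial growth factor, fell from 162, 193 and 180 CPM to 84.9, 90.0 and 86.6 CPM, by 1.03 ± 0.08. Csf1, the macrophage growth factor, fell from 576, 582 and 587 CPM to 226, 253 and 249 CPM. Bdnf fell by 1.23 ± 0.16, Tgfa by 1.01 ± 0.18 and Fgf7 by 1.66 ± 0.30. The rise was that of Pgf, a VEGF family member, at 0.822, 0.616 and 1.38 CPM in suspension and 3.71, 3.53 and 4.89 CPM on fibronectin. All 7 calls, Hbegf included, passed with any 1 library left out.

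Genes that damp ERK signalling, induced by the pathway they restrain, gave 1 rise and 6 falls among 24 tested, with a median of -0.33. Dusp1, a nuclear MAP kinase phosphatase, fell from 97.6, 135 and 151 CPM to 47.1, 45.7 and 52.9 CPM, by 1.40 ± 0.18, and Errfi1, an inhibitor of the EGF receptor, by 0.87 ± 0.14. Dusp14 was the rise, from 19.6, 16.8 and 18.2 CPM to 33.9, 30.7 and 40.4 CPM. Falls of Spry2, Spred2, Spred3 and Epha2 did not hold: without batch 3 the group had 2 falls in place of 6. The calls of Spred2 and Spred3 ended without suspension 3 or fibronectin 3, that of Spred2 also without suspension 2 and that of Spred3 without fibronectin 1. The call of Spry2 ended without suspension 2 or 3 or fibronectin 1 or 3, and that of Epha2 ended in each fit but the one without suspension 1. Dusp6, a cytoplasmic ERK phosphatase, did not pass against suspension but did against both laminin and no coating, at 0.30 ± 0.05 above their mean, and this held in 3 of 9 fits without 1 library.

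Immediate early factors did not share a direction, with 4 rises and 3 falls among 27 tested and a median of 0.0059. Besides Egr1, Junb fell by 0.93 ± 0.15 and the nuclear receptor Nr4a3 by 0.56 ± 0.10. Mafk, a small Maf protein that pairs with NRF2, rose from 54.3, 66.6 and 63.0 CPM to 107, 96.4 and 109 CPM. Rises of Maff, Atf3 and Ier5 were lost, in turn, without suspension 1 or 3 or fibronectin 1 or 3, without suspension 2 or 3 or fibronectin 1 or 3, and without any 1 of the 6 libraries. Of 13 Kruppel-like factors 4 rose and 1 fell. Klf2, known as a flow-responsive factor of endothelium, rose by 1.76 ± 0.16, Klf13 by 0.81 ± 0.15 and Klf11 by 0.62 ± 0.12, while Klf4 fell by 0.74 ± 0.11. The call of Klf11 ended without batch 3. The rise of Klf9 was lost without any 1 of the 6 libraries. Klf6 and Klf7 did not pass against suspension but did against both laminin and no coating, at 0.52 ± 0.05 and 0.75 ± 0.06 above their mean. For Klf7 this held in all 9 fits without 1 library, and for Klf6 it was lost without fibronectin 2 or laminin 2.

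FOXO factors are held in the cytoplasm by AKT and switch on genes of growth arrest and insulin sensitivity when AKT activity is low. Of 26 FOXO genes and responsive genes 8 rose and 2 fell (14 and 3 with the block), with a median of 0.44. Irs2, an insulin receptor substrate, rose from 125, 118 and 121 CPM to 304, 271 and 281 CPM, by 1.23 ± 0.10, and Tle1, a co-repressor, by 1.51 ± 0.11. Tsc22d3, a glucocorticoid-induced leucine zipper gene, rose by 0.70 ± 0.12 and Ccng2, an atypical cyclin, by 0.74 ± 0.15. Sgk1, a kinase related to AKT, fell from 496, 646 and 663 CPM to 234, 234 and 249 CPM, and the repressor Bcl6 fell by 0.63 ± 0.12. The rise of Ccng2 was lost without batch 3, that of Sesn1 without suspension 3 or fibronectin 1, that of Txnip without suspension 2 or 3 or fibronectin 1, and that of Fbxo32 in each fit but the one without fibronectin 3.

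The aryl hydrocarbon receptor is a ligand-activated factor that induces detoxifying enzymes, and 5 of its 10 tested genes rose while 0 fell (6 and 1 with the block), with a median of 0.45. At an unadjusted p under 0.05 edgeR gave 1 fall, and DESeq2 called 0. Cyp1b1 rose from 236, 184 and 201 CPM to 727, 861 and 559 CPM, by 1.79 ± 0.21. The receptor's repressor Ahrr rose by 1.39 ± 0.13 and Nqo1 by 1.28 ± 0.20. Cyp1a1 stood at 0.0587, 0.448 and 0.332 CPM in suspension and 4.35, 12 and 8.30 CPM on fibronectin. The rise of Aldh3a1 was lost without any 1 of the 6 libraries. The receptor gene Ahr stood at 120, 123 and 114 CPM in suspension and 99.7, 84.3 and 57.4 CPM on fibronectin, a difference of -0.57 ± 0.26 that passed with the block (edgeR, adjusted p = 0.011) and in the paired fit (0.036) but not without a block (0.18). Ahr also passed against both laminin and no coating, at 0.52 ± 0.05 above their mean, and held in all 9 fits of the attached libraries without 1 library. NRF2, the regulator of antioxidant defence, shares Nqo1 with this group. Of 34 NRF2 genes 11 rose and 1 fell (17 and 1 with the block), with Osgin1 from 16.1, 14.6 and 14.4 CPM to 60.8, 62.8 and 65.7 CPM, Ephx1 by 1.95 ± 0.21, Gss, the glutathione synthetase, by 0.73 ± 0.08 and Sqstm1, the autophagy receptor p62, by 0.67 ± 0.10. The count of NRF2 rises was 7 without suspension 1 or 2 and 6 without fibronectin 3, and 8 to 10 without any other library. The fall of the exporter Abcc1 ended without suspension 3 or fibronectin 1. Of these NRF2 genes 0 passed against both other surfaces (edgeR), and 3 did at an unadjusted p under 0.05.

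Of 76 cytosolic ribosomal protein genes 30 rose and 0 fell, each by little, with a median of 0.30. At an unadjusted p under 0.05 and with DESeq2 0 fell as well. Rps6 rose by 0.31 ± 0.06, from 924, 936 and 971 CPM to 1115, 1138 and 1244 CPM. The count depended on scaling and on single libraries: 66 rose with the block, 2 when libraries were scaled by total count only, and between 1 and 18 when 1 library was left out. Rpl7, Rpl26 and Rpl23 rose by 0.31 ± 0.06, 0.31 ± 0.07 and 0.27 ± 0.06, and each of these calls ended without suspension 3 or fibronectin 3 and without batch 3. Those of Rpl26 and Rpl23 also ended without suspension 2, and that of Rpl23 without fibronectin 2. Of 51 ribosome biogenesis factors 0 passed (edgeR; 3 at an unadjusted p under 0.05, 0 with DESeq2), while with the block 4 rose and 6 fell. Of 44 G2/M and mitosis genes 0 rose, also at an unadjusted p under 0.05 and with DESeq2, and 1 fell, the phosphatase gene Cdc25b, with a call that ended without any 1 of the 6 libraries. That count of falls was 14 with the block and 18 without batch 3. The share of all tested genes called without batch 3 is not given here, so the 18 has no background beside it. The group median was -0.23, against 0.0010 over all tested genes.

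The next question was which changes were particular to fibronectin. Since the suspension mean cancels in a difference between 2 surfaces, fibronectin was tested directly against laminin and against uncoated dishes over the 9 attached libraries with batch as a block, with no suspension library in the fit. Against laminin 224 genes passed (2.24%), and against no coating 191 (1.91%). Both tests use the same fibronectin libraries. The genes that passed both in the same direction numbered 139 (1.39%), of which 114 were higher and 25 lower on fibronectin, and they are called fibronectin-distinct here. A fit over all 12 libraries without a block called 15. A block over all 12 libraries called 32, and all 32 were among the 139. The 9 attached libraries were not fitted without a block, so its part in the lower counts was not tested. Leaving out 1 of the 9 libraries left between 49 and 162, and 46 of the 139 passed in each of those 9 fits.

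Set against suspension, the fibronectin-distinct genes fell into 4 kinds. For 87 the level on fibronectin did not pass against suspension, and their median change was 0.07 on fibronectin, -0.42 on laminin and -0.44 on uncoated dishes. For 28 the change passed and was larger on fibronectin, with medians of 0.74, 0.26 and 0.21. For 22 it passed and was smaller, with medians of -0.62, -1.07 and -1.11, and for 2 it passed and had the opposite sign. Of the 28, 24 lay above both other surfaces and 4 below. Of the 22, 12 lay above and 10 below, so their medians mix smaller falls with smaller rises. These 52 genes with a change from suspension are 5.37% of the 969 calls, and 37.4% of the 139. The 3 comparisons with suspension share the suspension libraries. A miss against suspension is not evidence of an unchanged level: with batch as a block 18 of the 87 were called higher and 14 lower than suspension.

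**Figure D3:**
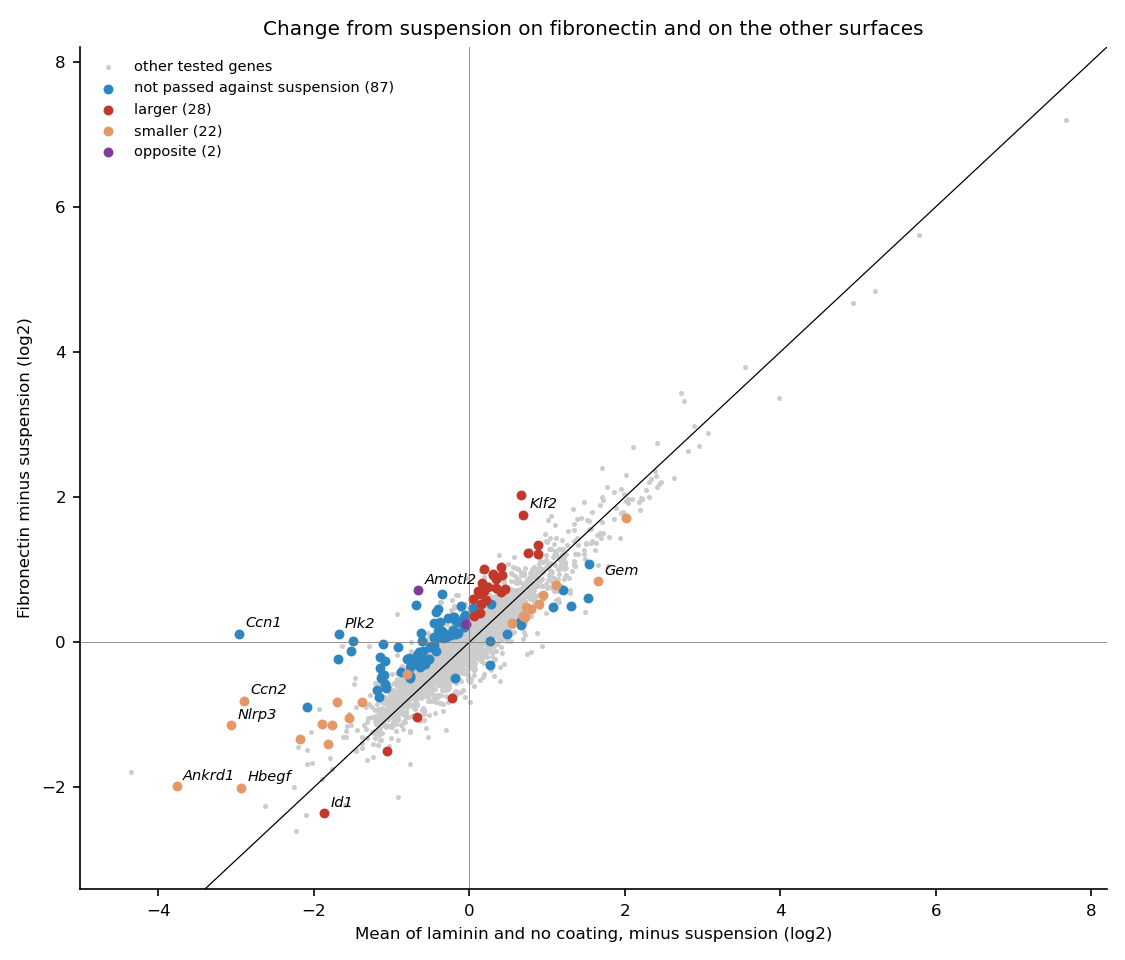
Change from suspension on fibronectin (vertical) against the mean change on laminin and uncoated dishes (horizontal), log2 scale, 1 point per tested gene, with the line of equal change; colours mark the 139 fibronectin-distinct genes by kind. Ccn1 and Plk2 lie near 0 on fibronectin and far to the left on the other surfaces, Ankrd1, Nlrp3 and Ccn2 fell less on fibronectin, and Amotl2 lies above 0 where the other surfaces lie below it. Both axes share the suspension libraries, which by itself draws points towards the line.

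YAP and TAZ targets held 9 of the 139 fibronectin-distinct genes, which are 1.39% of all tested genes. Of the 20 tested targets, 3 rose and 2 fell against suspension (3 and 8 with the block), and the median difference between fibronectin and the mean of the other surfaces was 0.34, against 0.0085 over all tested genes. Ccn1 (Entrez 83476), a secreted matricellular protein that binds integrins, stood at 437, 585 and 554 CPM in suspension and at 691, 462 and 559 CPM on fibronectin. On laminin it stood at 75.9, 31.4 and 60.6 CPM and on uncoated dishes at 114, 56.5 and 72.1 CPM. Suspension and fibronectin overlapped for this gene and both lay far above the other surfaces. Fibronectin exceeded laminin by 3.41 ± 0.13 on the log2 scale (edgeR with the block, adjusted p = 7.0e-07) and no coating by 2.86 ± 0.13 (adjusted p = 1.6e-06).

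Ccn2 (64032), its relative also known as connective tissue growth factor, did fall on fibronectin, from 658, 764 and 594 CPM to 485, 289 and 383 CPM, but fell further to between 72.2 and 117 CPM on the other surfaces. Its fall on fibronectin, -0.80 ± 0.21 (edgeR, adjusted p = 0.038), was lost without suspension 1, 2 or 3 or fibronectin 2 or 3. Its excess over laminin was 2.04 ± 0.08 and held without any 1 of the 9 attached libraries. Ankrd1 (27064), a stretch-responsive cardiac ankyrin repeat gene, showed the same order at a low level: 7.81, 12.9 and 9.86 CPM in suspension, 3.0, 2.79 and 2.0 CPM on fibronectin and at most 1.04 CPM elsewhere. Its place among the 139 ended without fibronectin 2 or laminin 1, 2 or 3 and with DESeq2.

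Among the intracellular members, Ajuba and Nuak2 behaved as Ccn1 did. Ajuba, a LIM protein that binds the Hippo kinase LATS, stood at 119, 126 and 115 CPM in suspension and 116, 103 and 112 CPM on fibronectin, against 33.7 to 45.3 CPM on the other surfaces. Nuak2, a kinase of the AMPK family, stood at 12.9, 12.3 and 11.8 CPM and 12.7, 11.1 and 13.8 CPM, against 3.70 to 4.94 CPM. Against the mean of the other surfaces these differences were 1.40 ± 0.06 for Ajuba and 1.52 ± 0.09 for Nuak2. Amotl2 (65157), an angiomotin that binds and restrains YAP, rose where Ajuba and Nuak2 did not. It held 247, 264 and 248 CPM in suspension and 419, 386 and 441 CPM on fibronectin. On laminin it held 156, 132 and 176 CPM and on uncoated dishes 164, 160 and 176 CPM. Fibronectin lay above suspension and suspension above the other surfaces without overlap, with a change of 0.71 ± 0.10 on fibronectin against -0.71 on laminin and -0.60 without coating. Dlc1, which also rose on the other surfaces, exceeded them on fibronectin by 0.50 ± 0.04, and Tgfb2 and Gadd45a by 0.49 ± 0.06 and 0.45 ± 0.08. Of the 9, Ccn1, Ccn2, Ajuba, Nuak2, Amotl2 and Dlc1 held in each fit that left out a library. Fjx1, also on the list, rose by 0.91 ± 0.17 and did not differ from the other surfaces. Yap1 itself stood between 57.1 and 66.1 CPM in the 6 libraries and did not pass.

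**Figure D4:**
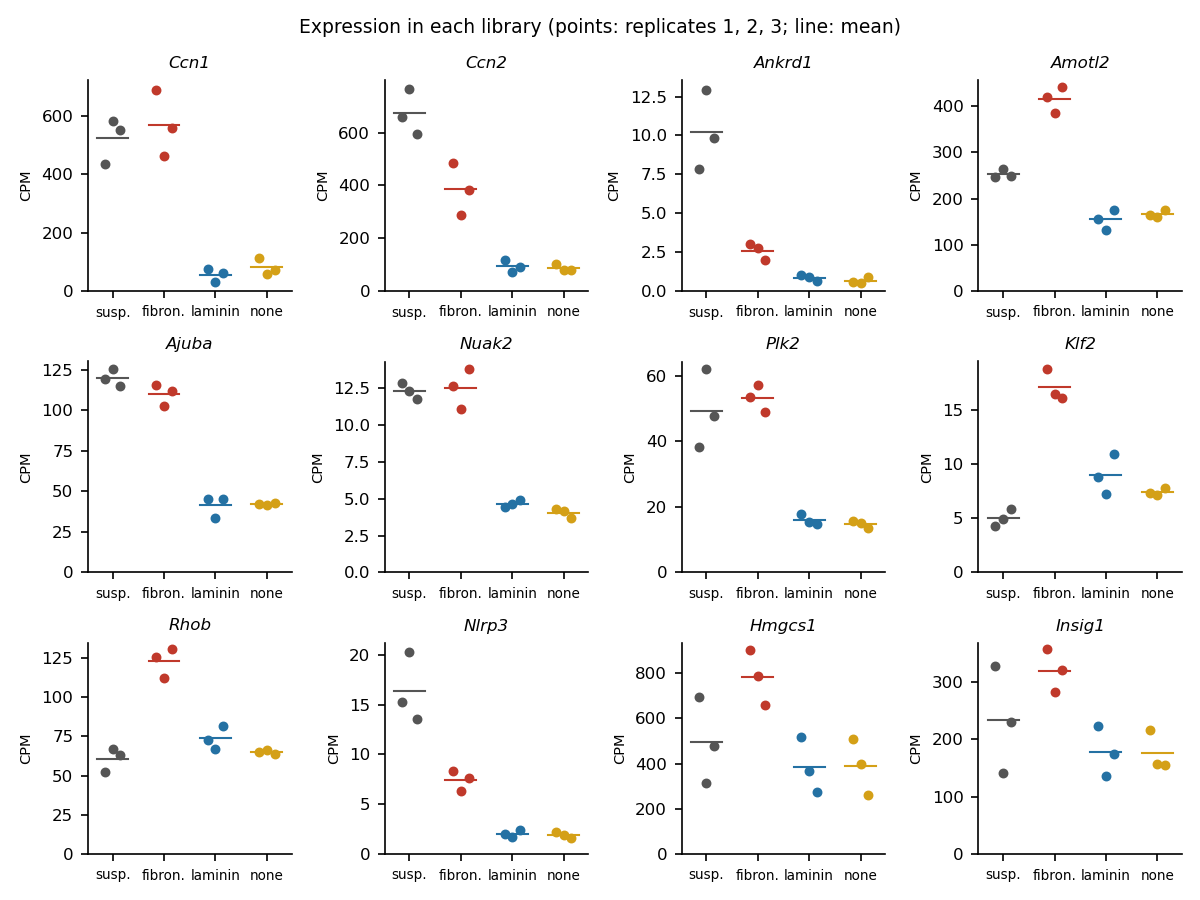
CPM in each library of the 4 groups, with replicates 1, 2 and 3 from left to right in each group and a line at the mean; every vertical axis starts at 0. For Ccn1, Ajuba, Nuak2 and Plk2 the fibronectin points lie with suspension, for Klf2, Rhob and Amotl2 above all other groups, and for Ccn2, Ankrd1 and Nlrp3 between suspension and the remaining surfaces.

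TEAD factors bind the letters GGAATG. Promoters of the 5 fibronectin-distinct YAP and TAZ targets that hold these letters are shown because their genes differed between fibronectin and both other surfaces in each fit that left out a library. Each is the 250 bases before the annotated start, 5′ to 3′ on the strand of the gene, from the RefSeq promoter table of assembly GRCr8, with GGAATG or its complement CATTCC in capitals.
Ccn1, chr2:237225690-237225939, minus strand: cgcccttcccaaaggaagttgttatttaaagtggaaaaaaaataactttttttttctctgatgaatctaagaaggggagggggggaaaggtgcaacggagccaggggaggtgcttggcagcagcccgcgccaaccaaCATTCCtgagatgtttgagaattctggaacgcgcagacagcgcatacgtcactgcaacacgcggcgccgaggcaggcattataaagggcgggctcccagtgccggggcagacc
Ccn2, chr1:22624615-22624864, minus strand: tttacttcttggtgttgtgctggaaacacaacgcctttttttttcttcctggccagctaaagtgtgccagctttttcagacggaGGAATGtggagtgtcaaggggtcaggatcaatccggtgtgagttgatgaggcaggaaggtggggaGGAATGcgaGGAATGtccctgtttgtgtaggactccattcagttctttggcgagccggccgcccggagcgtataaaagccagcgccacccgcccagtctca
Amotl2, chr8:112182376-112182625, plus strand: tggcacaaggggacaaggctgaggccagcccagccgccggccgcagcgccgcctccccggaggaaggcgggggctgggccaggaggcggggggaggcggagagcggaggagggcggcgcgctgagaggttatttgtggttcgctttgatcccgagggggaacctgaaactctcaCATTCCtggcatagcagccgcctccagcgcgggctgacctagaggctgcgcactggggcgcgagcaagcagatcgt
Ajuba, chr15:32000043-32000292, minus strand: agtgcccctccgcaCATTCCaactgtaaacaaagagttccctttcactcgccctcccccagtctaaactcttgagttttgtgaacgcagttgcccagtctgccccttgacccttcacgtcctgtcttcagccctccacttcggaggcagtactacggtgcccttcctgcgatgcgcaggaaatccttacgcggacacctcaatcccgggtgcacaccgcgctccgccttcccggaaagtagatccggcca
Nuak2, chr13:46305756-46306005, plus strand: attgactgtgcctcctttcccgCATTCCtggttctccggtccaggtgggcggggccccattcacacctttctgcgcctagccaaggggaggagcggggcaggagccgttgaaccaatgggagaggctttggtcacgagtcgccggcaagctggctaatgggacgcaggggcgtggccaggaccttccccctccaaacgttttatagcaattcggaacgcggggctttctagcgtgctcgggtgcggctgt
Ccn2 holds 3 matches, beginning 166, 101 and 92 bases before the start. The single match lies 113 bases before the start in Ccn1, 76 in Amotl2, 236 in Ajuba and 228 in Nuak2. Both strands were searched, and 6 of the 14 YAP and TAZ targets with a promoter entry held the letters, against 816 of 8226 tested genes (9.92%). Among the 109 fibronectin-distinct genes with an entry the share was 11.0%, near that background. A match describes letters in this window and is not a binding site.

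Hey2, the largest rise of the naming rule, is shown for comparison with the RBPJ letters TGGGAA and their complement TTCCCA in capitals, since it rose by 2.74 on fibronectin, 2.51 on laminin and 2.33 on uncoated dishes and passed no test between surfaces.
Hey2, chr1:28640850-28641099, plus strand: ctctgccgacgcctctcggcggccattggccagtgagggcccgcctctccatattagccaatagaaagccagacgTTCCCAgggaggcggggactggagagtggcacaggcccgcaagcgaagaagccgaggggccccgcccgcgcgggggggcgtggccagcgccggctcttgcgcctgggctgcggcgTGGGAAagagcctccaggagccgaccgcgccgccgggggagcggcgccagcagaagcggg
The matches begin 175 and 60 bases before the start. Of the 26 Notch pathway genes with an entry 10 held these letters, against 1648 of the 8226 tested genes. The RBPJ and TEAD letters share GGAA, so 1 stretch can hold both.

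Plk2 (83722), the Polo-like kinase of the series title, had overlapping groups in suspension and on fibronectin, with 38.4, 62.0 and 47.8 CPM in suspension and 53.6, 57.1 and 48.9 CPM on fibronectin. The other surfaces held 13.6 to 17.9 CPM, and the difference of 1.79 ± 0.06 between fibronectin and their mean stood beside calls against both surfaces in every fit run, the ones without the block and without any 1 library included. Of the 4 tested Polo-like kinases it was the only fibronectin-distinct one. Plk3, a stress-responsive relative, fell by 0.47 ± 0.13 with a call that ended in each fit without 1 library except that without fibronectin 3. The mitotic Plk1 and the centriole kinase Plk4 passed with the block (edgeR, adjusted p = 0.019 and 0.047) and in the paired fit (0.048 and 0.049) but not without a block, both lower on fibronectin.

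The genes with a larger rise on fibronectin were led, by the naming rule, by Klf2 at 4.29, 4.93 and 5.87 CPM in suspension, 18.7, 16.4 and 16.1 CPM on fibronectin, 7.23 to 10.9 CPM on laminin and 7.10 to 7.75 CPM on uncoated dishes. Fibronectin exceeded the mean of the others by 1.07 ± 0.10. Rhob, a short-lived small GTPase that is itself an early response gene, stood at 52.5, 66.8 and 63.1 CPM in suspension and 126, 112 and 131 CPM on fibronectin. On laminin it stood at 72.7, 67.0 and 81.8 CPM and on uncoated dishes at 64.9, 66.1 and 64.0 CPM, so its rise of 1.02 ± 0.11 on fibronectin compares with 0.28 and 0.10. Fst, Fzd8, Depp1, Dusp14, Tuft1 and Kctd7 completed the 8 largest. The follistatin gene Fst rose to 38.0, 39.4 and 38.0 CPM, above all other groups, which reached at most 27.6 CPM. Fzd8 rose by 0.81 ± 0.13 against 0.20 on laminin and 0.11 without coating. Klf2, Rhob, Fst and Fzd8 held without any 1 library in both tests, whereas Depp1 was no longer distinct without fibronectin 2 or laminin 1 or 2, and Dusp14 without laminin 1, 2 or 3. The rise of Kctd7 was lost in all but the fit without fibronectin 1, and that of Tuft1 without suspension 2 or 3 or fibronectin 1 or 2. Tsc22d3 and Mafk belong to the same kind, at 0.51 ± 0.05 and 0.53 ± 0.05 above the other surfaces.

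Some of the larger changes were falls. Id1 fell by 2.36 ± 0.20 on fibronectin, 1.83 on laminin and 1.90 on uncoated dishes, and the bone morphogenetic protein-responsive factor Atoh8 by 1.5 ± 0.21, 1.01 and 1.12. Atoh8 held 222, 181 and 235 CPM in suspension, 61.4, 77.8 and 87.0 CPM on fibronectin and 80.7, 111 and 125 CPM on laminin, so laminin 1 lies within the fibronectin range while each batch has less on fibronectin. Id4 was of the same kind, and Id3, at 1.42, 1.12 and 1.22, pointed the same way and did not pass against either surface. Calls of Id1 and Atoh8 as fibronectin-distinct ended without fibronectin 2 or no coating 2, and that of Id4 in 7 of the 9 fits.

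Among genes with a smaller change, Nlrp3, the sensor of the inflammasome, stood at 16.4 ± 3.5 CPM (SD, n = 3) in suspension, 8.30, 6.31 and 7.62 CPM on fibronectin and 1.64 to 2.36 CPM on the other surfaces. It held in all 9 fits without 1 library and was not distinct with DESeq2. Hbegf, Sgk1, Epha2 and the ephrin ligand gene Efnb2 followed that order too. Hbegf fell to between 10.6 and 14.9 CPM on the other surfaces against 20.6 to 26.2 CPM on fibronectin. Epha2 stood at 222, 408 and 332 CPM in suspension, 190, 167 and 186 CPM on fibronectin and 74.7 to 114 CPM on the others. Gem, a GTPase that inhibits calcium channels, was a rise of this kind, from 11.3 ± 0.88 CPM (SD, n = 3) to 20.4 ± 0.81 CPM (SD, n = 3), against 31.1 to 41.4 CPM elsewhere. Nfkbia, the inhibitor of NF-kB, rose by 0.46 ± 0.08 against 0.81 and 0.78, and the matrix crosslinker Tgm2 by 0.65 ± 0.08 against 0.96 and 0.95. For Tgm2 this difference was lost in 8 of the 9 fits, for Nfkbia without fibronectin 2, laminin 2 or no coating 2 or 3, and for Efnb2 without fibronectin 2, laminin 1 or 2 or no coating 2.

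Genes without a passing change from suspension, in the test without a block, included several regulators. Gadd45b, a stress sensor, stood at 29.1, 19.3 and 17.7 CPM in suspension and 34.8, 27.5 and 32.5 CPM on fibronectin and at 11.6 to 15.8 CPM on the other surfaces. The transcription factor Gata3 stood at 7.28, 7.12 and 6.92 CPM and at 6.06, 6.10 and 6.04 CPM, against 1.86 to 3.37 CPM, and it too was not distinct with DESeq2. Rnd1, an atypical small GTPase that lowers contractility, stood at 6.93 to 10.8 CPM, 7.83 to 8.93 CPM and, elsewhere, 2.89 to 4.93 CPM. Myc stood at 124, 186 and 159 CPM in suspension, 201, 192 and 202 CPM on fibronectin and 124 to 150 CPM on the other surfaces, 0.54 ± 0.04 above their mean. Vof16 was at -0.90 ± 0.34 on fibronectin against -2.25 on laminin and -1.93 on uncoated dishes, with fibronectin 3 at 13.9 CPM against 30.1 and 29.6 CPM in fibronectin 1 and 2. In the other direction, Sema7a, an integrin-binding semaphorin, the ephrin Efna1 and the aggrecanase Adamts4 were lower on fibronectin than on both other surfaces, Adamts4 at 12, 8.58 and 12 CPM against 13.9 to 23.2 CPM. With the block, Gadd45b, Myc, Efna1 and Adamts4 were higher than suspension (edgeR, adjusted p = 0.023, 0.039, 0.019 and 0.0096) and Vof16 was lower (adjusted p = 0.0071). Gadd45b, Adamts4 and Vof16 also passed in the paired fit (adjusted p = 0.039, 0.047 and 0.034), and Myc and Efna1 did not.

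Regulators of small GTPases that shape actin were also among the fibronectin-distinct genes. Dlc1, a GTPase-activating protein of focal adhesions, stood at 99.4, 102 and 94.4 CPM in suspension, 226, 169 and 167 CPM on fibronectin and 107 to 155 CPM on laminin. Rnd3, an atypical small GTPase, stood at 83.3, 80.0 and 45.7 CPM on fibronectin 1, 2 and 3 and at 53.8, 50.1 and 20.7 CPM on laminin 1, 2 and 3, higher on fibronectin in each batch. Stard13, a relative of Dlc1, and the CDC42 effector Cdc42ep3 were higher on fibronectin too, and Arhgap22 was lower. Rhob, Rnd1, Dlc1 and Rnd3 held in all 9 fits without 1 library, and Stard13, Cdc42ep3 and Arhgap22 did not. Against suspension, Cdc42ep2 rose by 2.11 ± 0.22 from a low base and the exchange factor Arhgef2, which is held on microtubules, fell by 0.66 ± 0.08, and Srgap2, a Rac GTPase-activating protein, by 0.43 ± 0.06. None of these 3 passed a test between surfaces.

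Sterol synthesis is governed by SREBP-2, which induces the enzymes of the mevalonate pathway when membrane cholesterol is short. Of 34 tested genes of sterol and fatty acid synthesis only Lpin1, a phosphatidate phosphatase, rose against suspension and 0 fell (edgeR, with 3 at an unadjusted p under 0.05 and 1 with DESeq2). With the block 7 rose and 3 fell, near the 28.7% that the block called over all tested genes. The call of Lpin1 was lost without suspension 2 or 3 or fibronectin 1 or 3 and without batch 3. Yet 12 of the 34 were fibronectin-distinct, against 1.39% of all tested genes. All 12 were higher on fibronectin, as were 114 of all 139 fibronectin-distinct genes. Among the 12 were Hmgcs1, Insig1, Msmo1, Dhcr7, Stard4, Fdft1, Mvd, Sqle, Nsdhl and Sc5d. Hmgcs1, which makes the precursor of mevalonate, stood at 902, 786 and 659 CPM on fibronectin, 519, 367 and 276 CPM on laminin and 509, 399 and 261 CPM on uncoated dishes. Its suspension libraries held 694, 313 and 477 CPM and spread across both ranges, and its change of 0.66 ± 0.32 from suspension did not pass without the block (edgeR, adjusted p = 0.21, and 0.028 with it). Insig1, which retains SREBP in the endoplasmic reticulum, stood at 356, 282 and 320 CPM on fibronectin against 135 to 223 CPM on the other surfaces.

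The excess over the mean of the other surfaces was 1.05 ± 0.07 for Hmgcs1 and 0.87 ± 0.07 for Insig1, and ran from 0.27 for Sc5d to 0.52 for Msmo1 among the other 8 genes named. The fatty acid enzymes Acaca and Elovl6 passed no test between surfaces, and both were lower than suspension with the block (edgeR, adjusted p = 0.0094 and 0.0083) and in the paired fit (0.031 and 0.019) but not without a block. Over all 12 libraries 0 of the 34 were fibronectin-distinct without a block and 4 with it. Without batch 3 the count was 12, with Sc5d no longer among them. The count was 5 without fibronectin 2, 6 and 7 without laminin 2 and 1, and 9 to 14 without any other library. Hmgcs1, Insig1, Msmo1 and Fdft1 held in all 9 fits without 1 library. Suspension 1 was the highest and suspension 2 the lowest suspension library for the 10 genes named, so these genes also varied within suspension.

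**Figure D5:**
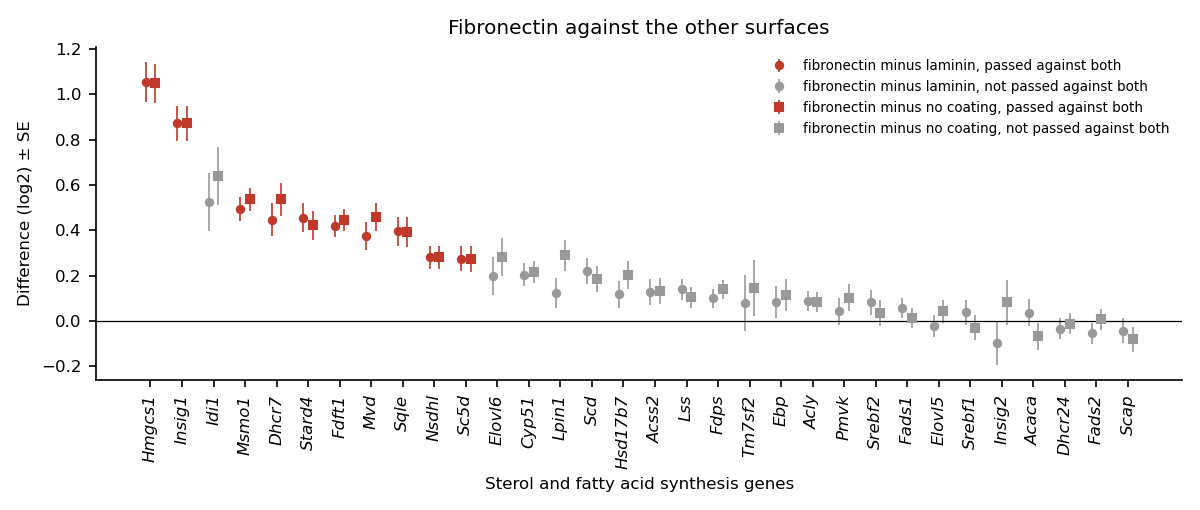
Difference between fibronectin and laminin (circles) and between fibronectin and no coating (squares), log2 scale with SE, for 32 of the 34 tested sterol and fatty acid synthesis genes in order of their mean difference. The 10 genes in red passed against both surfaces and lie between 0.27 and 1.06, and the genes in grey did not pass against both.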

How the data were processed

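RNA of 12 cultures was sequenced from stranded total RNA libraries, per the labels' protocols. The deposited files hold whole-number read counts for 16924 Entrez gene identifiers, and the submitters' processing notes name build rn4. No source used here gives the aligner, the counter or its strand setting. Reads of overlapping, antisense and near-identical genes, ribosomal protein copies among them, may therefore be split or shared. Symbols came from the RefSeq gene table of assembly GRCr8 and matched 16761 identifiers. The 163 without a symbol hold 0.301% to 0.357% of the reads of a fibronectin or suspension library.

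Counts were tested with edgeR 4.0.16 in R 4.3.3 (TMM scaling, filterByExpr, quasi-likelihood test, Benjamini-Hochberg over the 10020 genes left, threshold 0.05), with a mean for each of the 4 groups. Fibronectin was tested against each other surface over the 9 attached libraries with batch as a block. Alternatives were the block over 12 libraries, a paired fit of 6 and an unpaired fit of 6. Between surfaces, 12 libraries without a block were also fitted. Others were DESeq2 1.42.0, other scalings, no filter, and leaving out a library or batch 3. The code was tested on simulated data. CPM values use TMM library sizes, and log2 CPM a prior count of 2.

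The labels give each replicate number as a batch. Deviations of fibronectin and suspension libraries of 1 batch correlated across genes at 0.304, 0.246 and 0.0579, and those of fibronectin with the other surfaces at 0.514 to 0.782. Nothing says that replicates came from separate thaws, so p-values measure the spread between these libraries.

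Members and gene lists were chosen with earlier results of these data known. The rule named the 15 largest rises and falls with a mean log2 CPM of at least 2 and 1 direction in 3 batches, the 8 largest fibronectin-distinct genes of each kind, and of each list described the 4 smallest p and its fibronectin-distinct members. Lists given only as counts were not named by gene, some genes are not reported here, and other list members are named after their values were seen. Promoter sequences were searched in the 250 bases before the start of 8226 tested genes, and 1794 had no entry.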

Additional observations from a re-analysis of the deposited data

Results flagged for a closer look

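For 2 genes the change from suspension passed on fibronectin and had the opposite sign on both other surfaces, and the difference between surfaces passed its own test. Amotl2 rose by 0.71 on the log2 scale on fibronectin and was at -0.71 on laminin and -0.60 on uncoated dishes. Its difference was 1.43 from laminin and 1.31 from no coating (edgeR with the batch block, adjusted p = 7.0e-07 and 1.6e-06), and it passed under each alternative run. Rassf1, a scaffold protein of the Hippo pathway, rose by 0.25 on fibronectin, from 58.9, 58.0 and 52.6 CPM to 68.7, 65.6 and 67.0 CPM, and was at -0.03 and -0.06 on the other surfaces, both near 0. Its difference was 0.28 from laminin and 0.31 from no coating (adjusted p = 0.018 and 0.011). The rise of Rassf1 over suspension was lost without any 1 of the 6 libraries, and its place among the fibronectin-distinct genes without fibronectin 2, laminin 1, 2 or 3 or no coating 2 or 3.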

How the results depend on the processing

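The 969 calls against suspension became 2872 with the replicate block over 12 libraries and 1881 in the paired fit of 6, and ranged from 410 to 719 when 1 library was left out. Against laminin, 224 calls became 15 over all 12 libraries without a block, 41 with the 12-library block and 494 without batch 3. The range was 58 to 287 when 1 library was left out. Against no coating, 191 became 18 and 47 in the same order of blocks, with a range of 62 to 560. The 139 fibronectin-distinct genes became 15 and 32, with a range of 49 to 162. The cause was not tested. For single genes against suspension, 2104 alternative values kept direction and side of the threshold, 98 lost the call, 59 gained it and 21 changed sign. Each change of sign was of an uncalled value. Dhcr7 went to -0.028 without batch 3, and Nuak2 to -0.013 by library size only and -0.088 without batch 3. With 1 library left out the log2 ranges were -0.16 to 0.53 for Itga10, -0.020 to 0.29 for Sc5d, -0.041 to 0.25 for Ccn1, -0.074 to 0.32 for Nsdhl, -0.045 to 0.30 for Plk2, -0.081 to 0.27 for Sqle, -0.17 to 0.29 for Slc5a3, -0.088 to 0.24 for Fdft1, -0.17 to 0.31 for Dhcr7, -0.056 to 0.10 for Nuak2, -0.16 to 0.18 for Rnd1, -0.12 to 0.0087 for Fhl2 and -0.30 to 0.0015 for Gadd45a. Genes of a few reads per library, such as Ankrd1 on the other surfaces, are limited by depth.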

Other observations

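Some guidance genes passed on fibronectin. Of 11 tested Eph receptors and ephrins 1 rose and 2 fell, and of 23 tested semaphorins, plexins, slits, robos and netrins 3 rose and 3 fell. Over all tested genes 6.61% rose and 3.06% fell. With this few calls the counts do not set either group apart, and an excess was not tested. The 3 falls of the second group (Plxna2, Plxna3 and Unc5c) did not hold: 0 or 1 was left without any 1 of the 6 libraries. Ephb3, an Eph receptor, was the rise of the first group. Ntn4, a netrin of basement membranes, and Plxnd1, a semaphorin receptor, rose beside Sema5b. Among innate sensors and NF-kB regulators 5 of 35 rose and 3 fell (13 and 6 with the batch block), the rises being Nod1, Cd14, Irf1, Irf2 and Nfkbia.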
